A study of Trichoderma reesei with 6 samples.

Results

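The accessory genes of cellulose breakdown described here were 5 genes of the filamentous fungus Trichoderma reesei, taken by protein identifier. They were cel61a (73643), cel61b (120961), cip1 (73638), cip2 (123940) and swo1 (123992), and all 5 were among the 9129 genes of the table. The reference annotation gave a symbol for 4 of them. The gene 123992 has no symbol there, and its name swo1 came with the list of identifiers. The libraries came from mycelium of a strain without cre1 (Δcre1), made in the background of the parental strain QM9414, on 1% cellulose (3 libraries) or 2% glucose (3 libraries). The series states that cultures grew in Mandels-Andreotti medium at 28 °C and 200 rpm, for 24, 48 and 72 h on cellulose and 24 and 48 h on glucose. Which library belongs to which time is not given, so carbon source, its concentration and culture time cannot be told apart. For QM9414 only the authors' own comparison with the mutant was used, and the parental libraries were not analysed here.

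Cellulose in plant cell walls is partly crystalline, and hydrolases alone reach it slowly. Lytic polysaccharide monooxygenases (LPMOs), copper enzymes encoded by cel61a and cel61b, cut the chains by oxidation, and swollenin, encoded by swo1, is an expansin-like protein that loosens cellulose. The genes cip1 and cip2 encode secreted proteins with a cellulose-binding domain. Cip2 is a glucuronoyl esterase, an enzyme that splits ester bonds between hemicellulose and lignin. In this fungus such genes are known to be induced together with the cellulase genes by the activator Xyr1, and Cre1 is the repressor that keeps many of them low on glucose.

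Total reads recovered from the deposited values ranged from 9009170 in glucose library 1 to 24655534 in glucose library 3. One gene without a symbol took 33.3% of the reads in cellulose library 1 and 35.1% in glucose library 1, against 3.53% to 18.2% in the other 4 libraries. The cre1 gene itself had 2081 to 3394 normalised counts on cellulose and 525 to 997 on glucose, so no library labelled Δcre1 was without cre1 reads. In the authors' deposited table its level in the mutant was 25.8% of that of QM9414 on cellulose and 11.6% on glucose.

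The first comparison asked how the accessory genes responded to the carbon source without cre1. All 5 genes rose on cellulose, from 36.2-fold for swo1 to 408-fold for cip1, and 18.2% of the 8176 genes tested were called higher on cellulose. For each of the 5 the lowest cellulose library lay above the highest glucose library, as it did for 25.9% of the tested genes. The 5 genes together took 0.458% (95% Clopper-Pearson interval 0.455% to 0.461%), 0.271% (0.269% to 0.273%) and 0.165% (0.163% to 0.167%) of the reads in cellulose libraries 1, 2 and 3. In glucose libraries 1, 2 and 3 they took 0.00299% (0.00264% to 0.00336%), 0.00295% (0.00273% to 0.00317%) and 0.00335% (0.00313% to 0.00359%). These intervals cover counting error only.

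**Figure D1:**
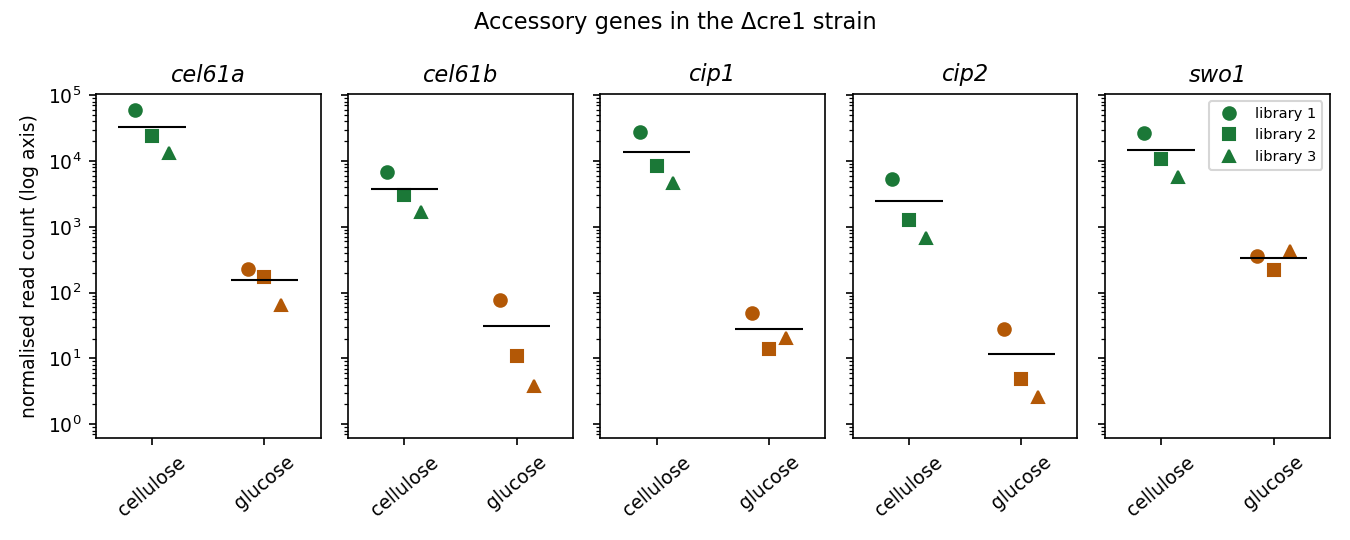
Normalised read counts (log axis) of the 5 accessory genes in the 3 cellulose and 3 glucose libraries of the Δcre1 strain; symbols mark the library number and lines the group means. The cellulose libraries lie above the glucose libraries for each gene, and cellulose library 1 is the highest each time.

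The LPMO gene cel61a had the highest counts of the set on cellulose, with 60490, 24148 and 13462 normalised counts in cellulose libraries 1, 2 and 3. In glucose libraries 1, 2 and 3 it had 229, 171 and 65.3 normalised counts. The groups did not overlap, and the lowest cellulose library was 58.7 times the highest glucose library. The group means were 32700.1 ± 24653 on cellulose and 155 ± 83.1 for glucose (SD, n = 3 each). On the log2 scale this was a rise of 7.61 (SE 0.62, limma adjusted p = 0.000302).

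The second LPMO gene, cel61b, stood at 6768, 3009 and 1689 normalised counts in cellulose libraries 1, 2 and 3. In glucose libraries 1, 2 and 3 it stood at 77.3, 10.9 and 3.84, which rest on 28, 18 and 6 reads. Glucose library 1 was therefore far above the other glucose libraries, and the lowest cellulose library was still 21.8 times as high as it. Its log2 rise was 7.62 (SE 0.98, limma adjusted p = 0.00158), with a wider error than for cel61a.

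On cellulose cel61a and cel61b moved in step, as their counts stood in a nearly fixed ratio of 8.94, 8.03 and 7.97 in libraries 1, 2 and 3 while cel61a itself varied 4.49-fold and cel61b 4.01-fold between those libraries. This was not particular to the pair, since on cellulose the ratio of cel61a to swo1 was 2.24, 2.21 and 2.39 in libraries 1, 2 and 3. The ratios of cel61a to cip1 and to cip2 varied more there. On glucose the ratio of cel61a to cel61b was 2.96, 15.7 and 17 in libraries 1, 2 and 3. Of the reads of both genes, cel61b had 10.1% (95% Clopper-Pearson interval 9.78% to 10.3%), 11.1% (10.8% to 11.4%) and 11.1% (10.7% to 11.6%) in cellulose libraries 1, 2 and 3. In glucose libraries 1, 2 and 3 its share was 25.2% (17.5% to 34.4%), 6.0% (3.59% to 9.32%) and 5.56% (2.07% to 11.7%). Glucose library 1, the shallowest of the 6, thus stood apart from the other glucose libraries by more than counting error.

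The log2 difference of cel61a minus cel61b averaged 3.05 ± 0.09 over the cellulose libraries and 3.06 ± 1.30 over the glucose libraries (SD, n = 3 each). The change of this difference with the carbon source was -0.01 (exact permutation test, two-sided, p = 1.0, where the smallest possible p is 0.1). Without glucose library 1 the change was -0.76 (exact permutation test, p = 0.1), and with a pseudocount of 10 it was 0.71 (exact permutation test, p = 0.3), so neither a shift nor its absence could be shown. The 2 LPMO genes are counted as separate features, and any reads shared between them could not be examined here.

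The gene cip1 had the largest log2 fold change of the set. It had 28069, 8355 and 4694 normalised counts in cellulose libraries 1, 2 and 3, and 49.7, 13.9 and 20.5 in glucose libraries 1, 2 and 3. The lowest cellulose library was 94.4 times the highest glucose library, the widest gap among the 5 genes. On the log2 scale it rose by 8.67 (SE 0.69, limma adjusted p = 0.00029), which was rank 11 among the 8176 tested genes.

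The glucuronoyl esterase gene cip2 was the least abundant of the set. It had 5313, 1292 and 689 normalised counts in cellulose libraries 1, 2 and 3, with a 7.71-fold range that was the widest of the 5 genes on cellulose. In glucose libraries 1, 2 and 3 it had 27.6, 4.84 and 2.56 normalised counts, from 10, 8 and 4 reads. The groups did not overlap, and its log2 rise came to 7.64 (SE 0.94, limma adjusted p = 0.00136). With a pseudocount of 10 in place of 1 the log2 fold change of cip2 was 6.47, so its size at these low glucose counts depends on that constant.

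The swollenin gene swo1 rose the least of the 5 and had the highest mean count of the set on glucose. It had 27026, 10934 and 5637 normalised counts in cellulose libraries 1, 2 and 3, against 359, 222 and 437 in glucose libraries 1, 2 and 3. Here glucose library 3 was the highest of its group, whereas glucose library 1 was the highest for the other 4 genes. The group means were 14532 ± 11140 on cellulose and 339 ± 109 for glucose (SD, n = 3 each). The log2 rise was 5.18 (SE 0.54, limma adjusted p = 0.000755).

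The count of swo1 relative to that of cel61a was lower in each cellulose library than in any glucose library. This log2 difference, not corrected for gene length, was -1.16, -1.14 and -1.26 in cellulose libraries 1, 2 and 3, and 0.65, 0.37 and 2.72 in glucose libraries 1, 2 and 3. The difference between the group means was -2.44 (exact permutation test, two-sided, p = 0.1, the smallest possible with 3 against 3 libraries, and 0.2 adjusted over 4 genes). Leaving out 1 library at a time gave differences from -2.87 to -1.70. For cip1 the difference was 1.06, with levels relative to cel61a of -1.39 ± 0.24 for cellulose and -2.44 ± 0.98 for glucose (SD, n = 3 each, exact permutation test p = 0.1, 0.2 adjusted over 4 genes). Without glucose library 2 the cip1 difference was 0.52, and with any cellulose library left out its exact p was 0.2. With a pseudocount of 10 it was 0.69 (exact permutation test, p = 0.3). The glucose counts of cip1 rest on 18, 23 and 32 reads in libraries 1, 2 and 3. For cip2 the difference was 0.03 (exact permutation test p = 1.0).

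**Figure D2:**
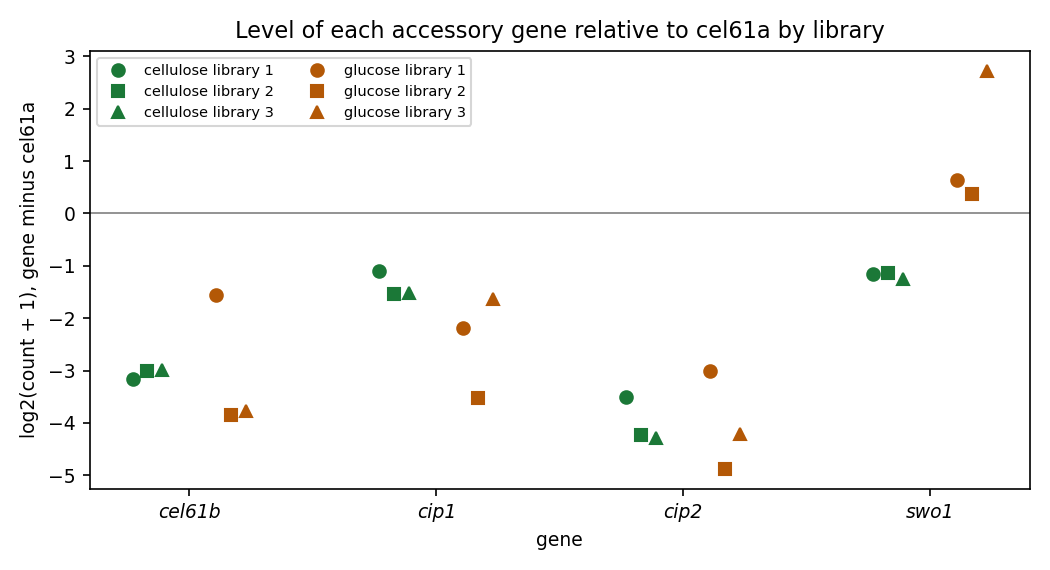
Level of cel61b, cip1, cip2 and swo1 relative to cel61a, as the difference of log2(normalised count + 1) without correction for gene length, in each cellulose and glucose library. The swo1 points lie below 0 on cellulose (-1.16, -1.14 and -1.26) and above 0 on glucose (0.65, 0.37 and 2.72), and the cel61b points are tight on cellulose and spread on glucose.

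Levels of different genes were compared per kilobase of reference gene length, introns included. On cellulose the order of mean normalised counts per kilobase was cel61a at 24204 ± 18248, cip1 at 11635 ± 10673, swo1 at 8123 ± 6227, cel61b at 3138 ± 2164 and cip2 at 1689 ± 1746 (SD, n = 3 each). The ranges of neighbours in this order overlapped over the 3 libraries, but within each library the order was the same, in 3 of 3 libraries for each neighbouring pair. The closest pair was cip1 over swo1, with a ratio between 1.16 and 1.58 in a single library. Among the 9072 genes with a length, cel61a ranked 17, 72 and 115 in cellulose libraries 1, 2 and 3, while cip2 ranked 415, 1865 and 3233.

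On glucose swo1 led at 190 ± 61.0 normalised counts per kilobase, before cel61a at 115 ± 61.5, cel61b at 25.2 ± 33.3, cip1 at 23.8 ± 16.2 and cip2 at 8.11 ± 9.62 (SD, n = 3 each). The order was less firm there, since swo1 was above cel61a in 2 of 3 libraries and cel61b above cip1 in 1 of 3. Of the neighbouring pairs in this order, cel61a over cel61b and cip1 over cip2 held in 3 of 3 glucose libraries. The cel61a gene ranked 5423, 5909 and 6993 in glucose libraries 1, 2 and 3.

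The spread between cellulose libraries was large and shared by the 5 genes. Each was highest in cellulose library 1 and lowest in cellulose library 3, as were 36.8% and 41.7% of all tested genes. The ratio of the highest to the lowest cellulose library was 4.01 to 7.71 for the 5 genes, where the median tested gene had 1.54 and the 90th percentile was 3.17. As a share of each library's total reads, which sets the deposited scaling aside, this ratio was 2.28 to 4.39. The median and 90th percentile above are of the deposited normalised counts and were not computed for these shares. The regulator gene xyr1 had 20926, 9767 and 5293 normalised counts in the same cellulose libraries 1, 2 and 3. Whether culture time, the single gene that took 33.3% of the reads of cellulose library 1, or xyr1 has a part in this spread was not tested.

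Beside the accessory genes, 10 cellulase genes with a reference symbol were followed. Of these, 6 were called higher, 1 was called lower and 3 were not called, where 18.2% of all tested genes were higher and 11.2% lower. The median log2 fold change was 3.10 for the 10 genes, 7.62 for the 5 accessory genes and -0.02 for all tested genes. The median of 3.10 mixes kinds of enzyme, and the values also differed within a kind. The β-glucosidase genes cel1a, cel1b, cel3c and cel3a had log2 fold changes of 1.35, 1.56, 0.81 and 6.35. The gene cel5b was at -1.36 and was not called. The cellobiohydrolase gene cel7a and the endoglucanase genes cel5a, cel12a and cel7b were among those that rose, at log2 fold changes of 8.09, 8.46, 6.72 and 4.64. The member that fell was the β-glucosidase gene cel3b, at -1.28 (limma adjusted p = 0.0383). That call was lost without cellulose library 1 or any 1 of the glucose libraries, and without cellulose library 3 the list had 2 members lower. Other cellulase genes of this fungus have no symbol in the reference and are not in the list. The regulator genes xyr1, ace1, hap2 and hap3, with log2 values of 0.95, 0.23, 0.28 and 0.17, did not pass.

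**Figure D3:**
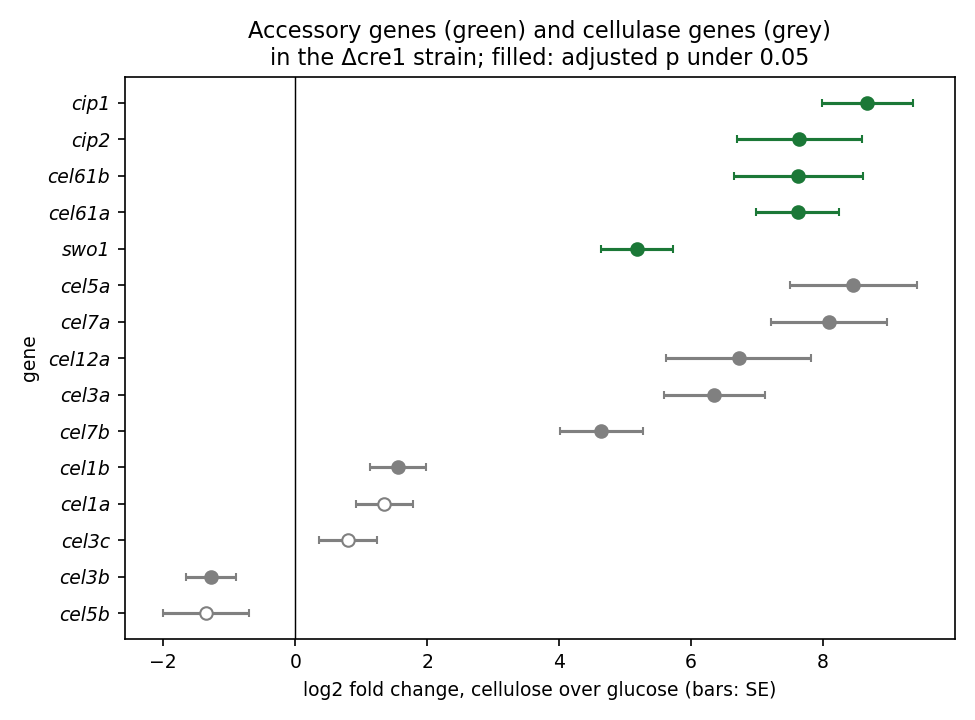
Log2 fold change of cellulose over glucose with its SE for the 5 accessory genes (green) and 10 cellulase genes (grey) of the Δcre1 strain, with filled points for limma adjusted p under 0.05. The accessory genes lie between 5.18 and 8.67, within the range of cel7b (4.64) to cel5a (8.46) except for cip1.

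Likeness of pattern was measured over the 6 libraries, and genes without a symbol, some of which ranked closer, are not named. Among genes with a symbol other than the accessory genes themselves, the closest to cel61a was axe1, an acetyl xylan esterase gene (Pearson r = 0.997), and the closest to cip1 was the mannanase gene man5a (r = 0.996). For cip2 it was cel5a (r = 0.9995, the highest of all 7354 genes compared), and cel5a was also the closest of these to cel61b (r = 0.992). For swo1 the closest of these was the chitinase gene chi18-6 (r = 0.987), at rank 137 of all genes compared, followed by cel3a (r = 0.985). Within the set, cel61b was most like cip2 (r = 0.995) and least like swo1 (r = 0.943), while swo1 was most like cip1 (r = 0.991, at rank 67). These values describe 6 libraries, which share the split into 2 carbon sources and the deposited scaling. Between 5.15% and 9.6% of the compared genes had r above 0.95 with a given accessory gene.

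The genomic neighbours of the 5 genes differed. In the gene order of the reference, cip1 and cel61a lie next to each other, with axe1 on the other side of cip1. The axe1 gene had 4823, 2184 and 1218 normalised counts in cellulose libraries 1, 2 and 3, and 5.52, 1.21 and 0 in glucose libraries 1, 2 and 3. All 3 genes of this run thus rose on cellulose, axe1 by 9.91 on the log2 scale (SE 0.75, limma adjusted p = 0.000236). The next gene beyond cel61a, 102504, had at most 3.84 normalised counts in any library and was not tested, and the 2 genes after it did not pass (log2 fold changes 0.58 and 0.26).

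The swo1 gene lies between cel7a, as second neighbour on one side, and 111849 on the other. The gene 111849 has no symbol and rose by 5.61 on the log2 scale (SE 0.45, limma adjusted p = 0.000293), while 69483, between swo1 and cel7a, was at -1.22 without passing. Next to cip2, 69276 rose by 5.98 on the log2 scale and 69189 was below the limit for testing. Around cel61b no tested neighbour rose. There 105466, 76374 and 58767 were all lower on cellulose, by log2 fold changes of -1.35, -3.85 and -1.66. Of the 24 different genes within 3 places of an accessory gene, 7 were not tested for low counts, 7 rose, 3 fell and 7 did not pass. Over all tested genes 18.2% were higher and 11.2% lower.

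**Figure D4:**
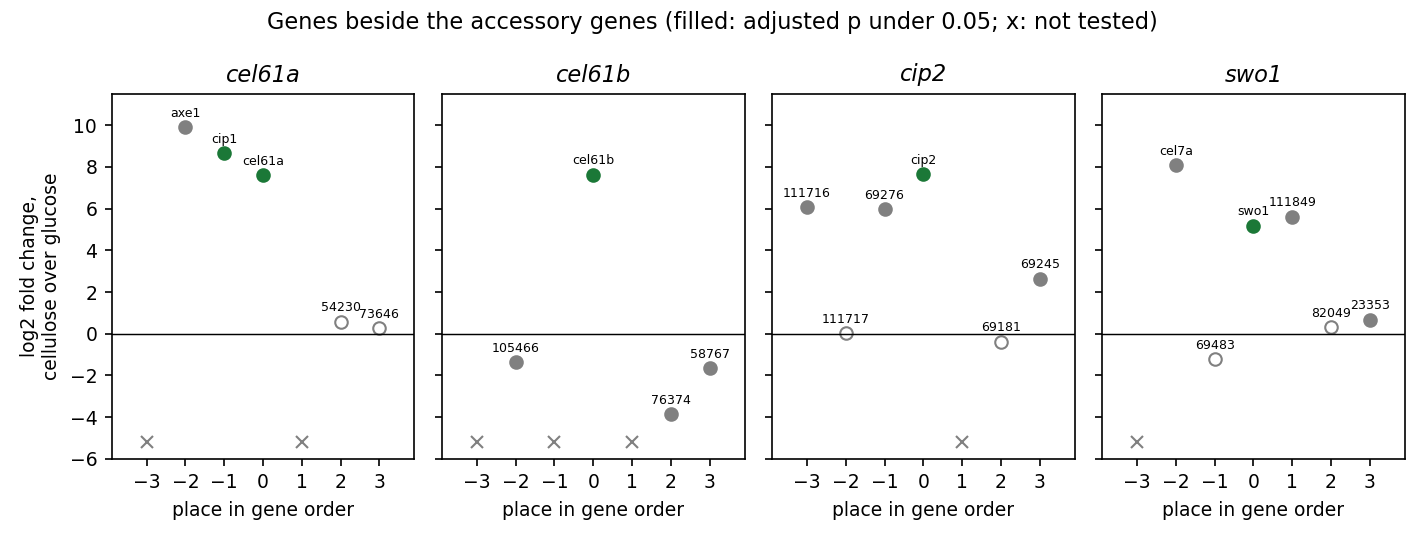
Log2 fold change of cellulose over glucose for the genes within 3 places of cel61a, cel61b, cip2 and swo1 in the reference gene order (accessory genes green, others grey, filled for limma adjusted p under 0.05, crosses for genes not tested). The axe1, cip1 and cel61a genes stand together between 7.61 and 9.91, while the tested neighbours of cel61b lie below 0.

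The second comparison asked how far the loss of cre1 changed these genes relative to QM9414, for which the authors' own log2 fold changes were read. The 2 LPMO genes stood on opposite sides on cellulose. In the authors' deposited table cel61b was lower in the mutant, at 23.3% of its level in QM9414 (-2.10 on the log2 scale, deposited adjusted p = 2.5e-16). It was the one accessory gene called there, where 2.48% of 8898 genes were called lower and 6.68% higher. In the authors' deposited table cel61a was at 424% of its level in QM9414 without a call (2.08 on the log2 scale, deposited adjusted p = 0.142). The distance between the 2 log2 fold changes of the authors' deposited table was 4.18 on cellulose and -0.27 on glucose, and that distance was not tested.

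The other accessory genes had positive fold changes and no call on cellulose. In the authors' deposited table swo1 was at 1.43 on the log2 scale (deposited adjusted p = 0.3), cip1 at 0.76 (deposited adjusted p = 0.754) and cip2 at 0.75 (deposited adjusted p = 0.808). In the authors' deposited table this was 1.69-fold for cip1 and 2.7-fold for swo1. As a different measure, the mutant's cellulose libraries ranged from lowest to highest by 4.79-fold (swo1) to 7.71-fold (cip2) for these genes. For cel61b, which was called, that range was 4.01-fold. Whether this spread bears on the calls was not tested. Of the neighbours named above, axe1 stood at 1.83 and was not called (deposited adjusted p = 0.114) and 111849 was called higher at 2.21 (deposited adjusted p = 0.00659) in the authors' deposited table. The next genes on that side of swo1 were called higher too in the authors' deposited table. These were 82049 at 1.69 (deposited adjusted p = 0.0258) and 23353 at 5.01 (deposited adjusted p = 8.95e-78). Apart from the accessory genes themselves, no other neighbour was called on cellulose there.

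On glucose, the condition in which Cre1 represses, none of the 5 accessory genes was called in the authors' deposited table, where 4.42% of 8924 genes were called higher and 3.4% lower. The values on the log2 scale were 2.03 for cel61b, 1.75 for cel61a, 1.47 for cip2, 1.19 for swo1 and 0.92 for cip1, each with a deposited adjusted p of 1.0. The table holds no unadjusted p-values. In the mutant these genes had from 22 reads (cip2) to 1179 reads (swo1) in the 3 glucose libraries together, and 28 reads or fewer per library for cel61b and cip2. Of the 10 cellulase genes, 4 were called higher on glucose in the authors' deposited table, with 0 called lower, and these were cel3b, cel3c, cel1a and cel1b, which encode β-glucosidases. The regulator gene xyr1 was called higher as well, at 5.19, in the authors' deposited table.

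On cellulose 1 of the 10 cellulase genes was called higher and 1 lower in the authors' deposited table. The one called lower was the endoglucanase gene cel12a at -1.14 (deposited adjusted p = 0.0291), and the one called higher was cel1a at 0.85 (deposited adjusted p = 0.00352).

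**Figure D5:**
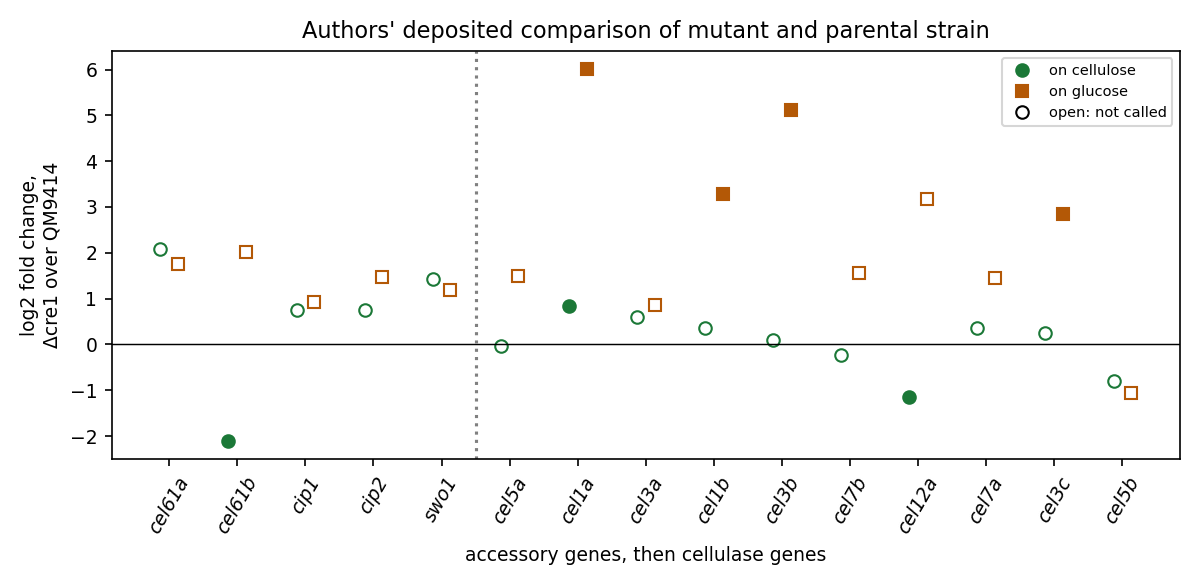
Ratio of Δcre1 over QM9414 as a log2 fold change, from the authors' deposited table, on cellulose (circles) and glucose (squares), for the 5 accessory genes left of the dotted line and 10 cellulase genes right of it; filled symbols have a deposited adjusted p under 0.05. The cel61b value on cellulose, -2.10, is the lowest point and the only filled one among the accessory genes.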

How the data were processed

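RNA of mycelium was sequenced from TruSeq libraries, per the labels' protocols. Of tools, DESeq 1.10.1, SAMtools 0.1.18 and Bowtie 0.12.8 appear in the submitters' processing notes, without roles. For the genome build and the read counter nothing is given in the sources. The authors deposited a normalised signal per gene and library. Each value was a whole multiple of 1 fixed step per library, within 0.01 read for 100% of values, so whole reads were recovered. The authors' second table gives log2 fold changes of mutant over parent and adjusted p-values, per the file headers. Values of 100 or -100 there are placeholders and were left out. The 6 columns of parental libraries belong to another series, have no sample labels and were not used.

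Protein identifiers matched RefSeq locus tags (strain QM6a, assembly v2.0) for 9072 genes, which served for names, lengths and gene order. Cellulose was tested against glucose with limma 3.58.1 (R 4.3.3, intensity trend) on log2(normalised count + 1), two-sided, with Benjamini-Hochberg adjustment over all genes with a mean of at least 10 over the 6 libraries and a threshold of 0.05. Fold changes are on this log2 scale, where the added 1 makes those of low genes smaller than a smaller constant would. Count models did not all give larger values. On the recovered reads edgeR and DESeq2 gave 7.44 and 7.01 for cel61b, against 7.62 in the main fit. For cip2 they gave 8.33 and 7.81, against 7.64. All 5 accessory genes passed the filter. Differences between 2 genes were tested by exact permutation of the 6 libraries. Alternatives were other pseudocounts, filters and scalings, a replicate block, leaving out each library, edgeR 4.0.16 and DESeq2 1.42.0 on the recovered reads, and scaling to total reads, which was added after the data were seen. The script was tested on simulated data.

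The series calls the 3 libraries of a group biological replicates. The text names the 5 accessory genes, the 3 genes with a symbol most like each, their neighbours, and the cellulase and regulator genes with a symbol, by a written rule; not all of these are reported here. Neighbours without a symbol, named by identifier, were chosen after their values were seen. The members and lists were chosen with earlier results of these data known. No sequence is shown.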

Additional observations from a re-analysis of the deposited data

How the results depend on the processing

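Each of the 5 accessory genes stayed higher on cellulose with an adjusted p under 0.05 in all 16 alternatives, with log2 fold changes of 7.03 to 8.11 for cel61a, 6.74 to 8.74 for cel61b, 7.95 to 9.24 for cip1, 6.47 to 8.53 for cip2 and 4.58 to 5.71 for swo1; the largest adjusted p was 0.0121. The labels do not state that the replicate numbers pair the libraries. Same-numbered libraries had correlations of deviations of 0.12, -0.14 and -0.03, which cannot decide whether they are pairs. The fit with the replicate block left 1264 genes higher and 647 lower on cellulose, against 1490 and 913, and 0 cellulase genes lower.

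Scaled to total reads, 872 genes were higher and 447 lower, and under quantile normalisation 1520 were lower. These scalings put the median over all genes, on the log2 scale, at -0.17 and -0.18, against -0.02. Leaving out 1 library gave 361 to 1369 lower genes (574 without cellulose library 2, and 532, 361 and 456 without glucose libraries 1, 2 and 3), 999 to 1720 higher genes and 0 to 2 cellulase genes lower; that last count was also 0 without a filter and in edgeR. The change of cel61a minus cel61b with carbon source was 0.71 with a pseudocount of 10 and -0.76 to 0.39 without 1 library, and that of cip2 minus cel61a was -1.04 with a pseudocount of 10 and -0.39 to 0.54 without 1 library. The cause was not tested. Counts of 4 to 28 reads limit cip2 and cel61b on glucose, and cip1 had only 18, 23 and 32 reads in glucose libraries 1, 2 and 3.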
